A study of Mus musculus with 17 samples.

Results

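Solute carrier genes (symbols Slc, a family number, the letter a and a member number) encode the membrane proteins that move nutrients, ions and metabolites into and out of cells and organelles. The members were taken by symbol from a deposited table of 38087 genes. Of 340 matching symbols, 41 were listed at 0 in every group, 125 stayed below a log2 value of 5 in every group, and 174 reached 5 in at least 1 group. Among these 174, 8 were left out by name (they belong to iron, glucose, lactate, arginine and cystine transport) and 2 as pseudogenes, which left 164 members in 43 families. The choice used level only and no difference between groups. Just outside it lay Slc2a10, with a highest value of 4.98, and Slc25a43, at 4.87, and just inside lay Slc5a2, at 5.03, and Slc1a3, at 5.15. All 164 members matched a protein-coding gene of GENCODE M21 by gene ID. The symbol rule also took 4 genes that encode no transporter: Slc9a3r1 and Slc9a3r2, scaffold proteins that bind transporters, Slc4a1ap, an adaptor protein, and Slc7a6os, a neighbour of Slc7a6 on the opposite strand.

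Solute carriers are sorted into families by sequence, and most families share a kind of substrate. Families 1, 6, 7 and 38 carry amino acids, family 2 carries hexoses, and families 30 and 39 move zinc out of and into the cytosol. Most members of family 25 serve the inner mitochondrial membrane. Several macrophage carriers act at the lysosome, where they return amino acids, peptides, nucleosides and heme from digested cells to the cytosol. Some family 7 proteins reach the surface only as light chains bound to the heavy chain Slc3a2 (CD98).

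The cells came from injured leg muscle (tibialis anterior) of male DBA/2J mice at 3 months of age. The injury was made with cardiotoxin, a venom protein that destroys muscle fibres. No genetic change or drug is given for any group. The groups were neutrophils of day 1 (2 samples), macrophages with high surface Ly6C of days 1, 2 and 4 and macrophages with low surface Ly6C of days 2 and 4 (3 samples each), 17 samples in 6 groups. Nothing in the labels says whether the samples of a group came from separate animals. No uninjured muscle and no resting cells are among the groups.

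Each group has a single number per gene, on a log2 scale of normalised reads, taken as the authors' mean over its samples. Values below therefore carry no error and no p-value, and it is not known whether any difference is larger than the spread between samples. Library totals are unknown. From the lowest values, a read was worth 0.412 to 1.03 normalised units, which puts a log2 value of 5 at 31.2 to 77.6 reads and its counting error at 11.4 to 17.9%. These figures take every read as a separate count, which was not tested. Marker genes of the sorts and of other cells bear on the columns. The 9 macrophage markers summed to 36139 normalised reads in neutrophils and to 58226 to 102403 in the macrophage groups. The neutrophil markers summed to 89018 in neutrophils and to 2160 to 4770 elsewhere, and Ly6g, which defines neutrophils, had a value of 3.48 there, with all 5 macrophage groups listed at 0. The neutrophil column thus holds both marker sets. In bulk samples, fewer cells of a type and less RNA per cell cannot be told apart.

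Most solute carrier genes were expressed in every group. Of the 164 members, 129 were at 5 or above in all 6 groups and 103 at 7 or above in all 6, while 46 reached 10 in at least 1. On a scale per kilobase of exon (mean log2 value minus log2 of exon length), which allows genes to be compared, Slc3a2, the heavy chain, stood first at 10.86. It was followed by Slc25a5, an ADP/ATP carrier of mitochondria, at 10.74, by Slc15a3, a lysosomal carrier of histidine and peptides, at 10.52, and by Slc25a3, the mitochondrial phosphate carrier, at 9.83. Next came the light chain Slc7a8 (9.74), the taurine carrier Slc6a6 (9.63), the zinc importer Slc39a1 (9.58) and Slc37a2, a sugar phosphate exchanger of the endoplasmic reticulum (9.38). The strand setting of the counting is not stated. Reads of Slc15a3 are less certain, since 28.1% of its exon bases overlap Tmem132a, and those of Slc25a5 may be shared with its processed copies.

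The members varied over the groups about as much as other genes. The highest and lowest of the 6 values lay 2-fold or more apart (a log2 difference of 1) for 98 of 164 members (59.8%), beside 57.8% of all genes that reach 5. They were at least 4-fold apart for 39 (23.8%), beside 29%. Over the 5 macrophage groups, 67 of 156 members (42.9%) spanned 2-fold, beside 36.3% of all genes. The group with the highest value was most often Ly6C low macrophages of day 4, for 46 members (28%, beside 19% of all genes). Under median-ratio rescaling this number was 50 (30.5%, beside 18.9%), and under quantile normalization 46 (28%, beside 16.6%). Neutrophils were highest for 34 members (20.7%, beside 24.5%) and Ly6C high macrophages of day 4 for 18 (11%, beside 16.4%).

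**Figure D1:**
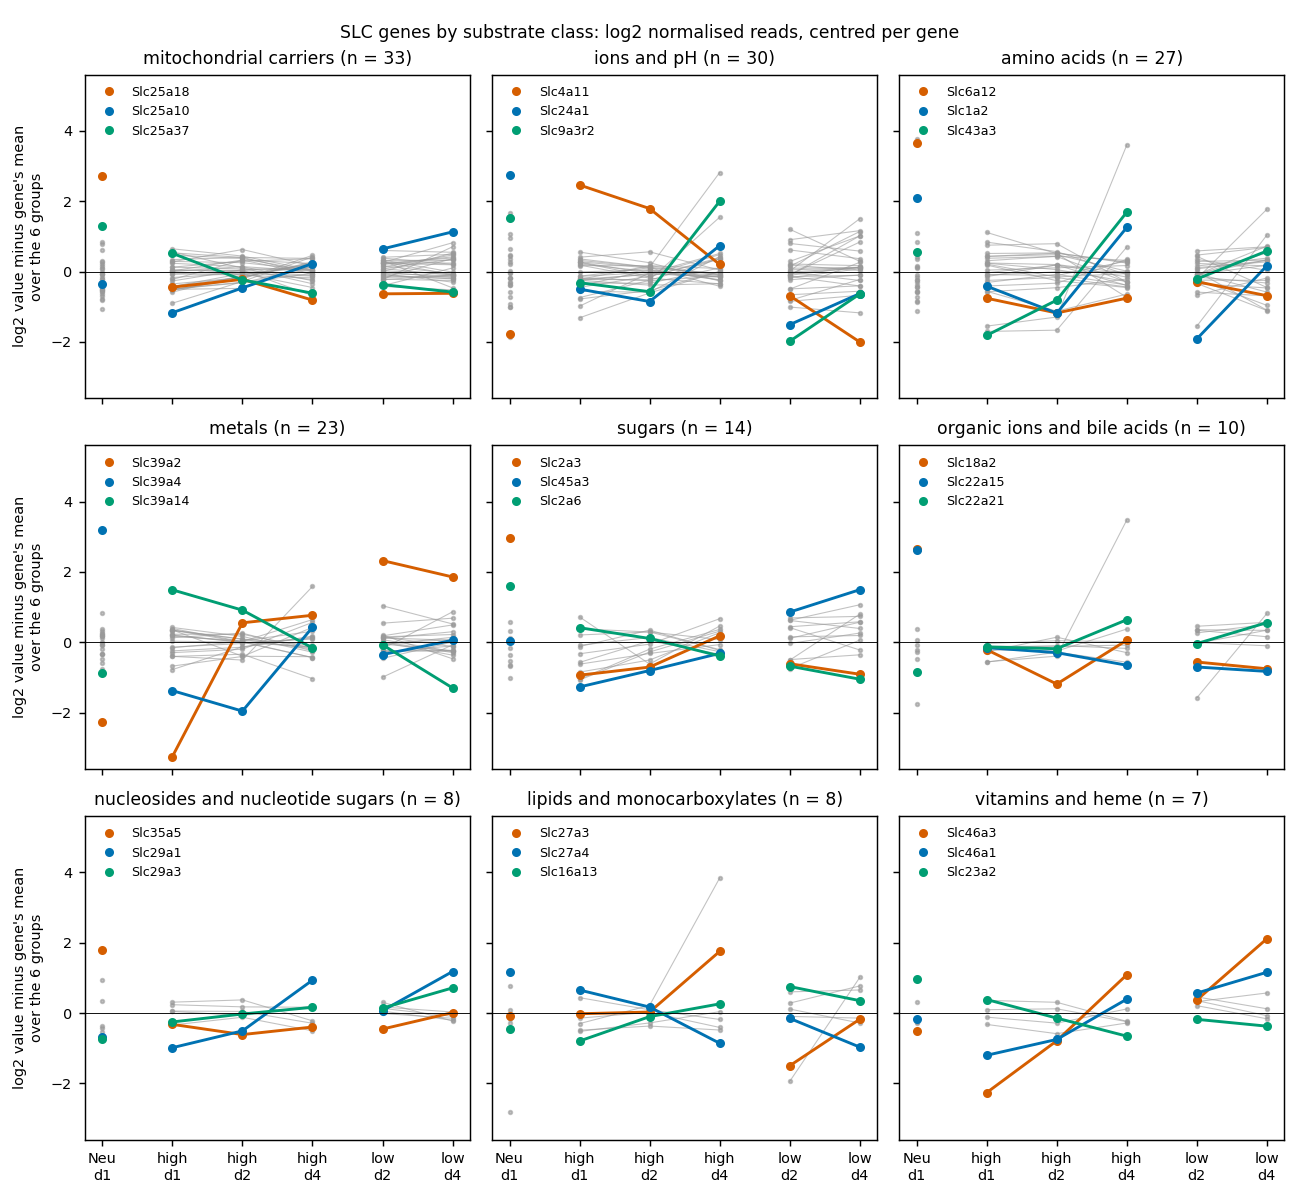
Log2 normalised reads minus each gene's mean over the 6 groups (vertical axis) by group (horizontal axis: neutrophils of day 1, Ly6C high of days 1, 2 and 4, Ly6C low of days 2 and 4) for the members of 9 substrate classes, leaving out 4 members of other substrates. Points are group means with no error, lines join the days of 1 sort, and coloured are the 3 widest-ranging members per panel with a mean of at least 3. The 33 mitochondrial carriers lie in a narrow band apart from Slc25a18, Slc25a10 and Slc25a37, whereas single members of the other classes stand far from their band in 1 group.

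A member was compared between groups when it was at 5 or above in at least 1 of them, and it was counted when the values were at least 2-fold apart. Members said to lead a comparison had the largest differences among those whose higher group reached 7. The 7 comparisons share columns with one another, so their results are given side by side and not as separate evidence. Where both Ly6C low values are said to lie above or below all Ly6C high values, 2 group means are set against 3. The share of all genes with such an order was not computed, so the order describes single genes only. Between Ly6C high macrophages and neutrophils of day 1, 35 of 151 members (23.2%) were at least 2-fold apart, beside 32.7% of all genes and 26.5% of protein-coding genes. From day 1 to day 2 of Ly6C high macrophages the number was 3 of 140 (2.14%, beside 2.51%). It was 20 of 150 from day 2 to day 4 (13.3%, beside 16.3%) and 31 of 149 from day 1 to day 4 (20.8%, beside 21.6%). Ly6C low and Ly6C high macrophages differed for 10 of 144 members on day 2 (6.94%, beside 7.74%) and for 25 of 156 on day 4 (16%, beside 11.4%). From day 2 to day 4 of Ly6C low macrophages, 13 of 150 were counted (8.67%, beside 11.4%). The members' shares thus lay near or below those of all genes, apart from the day 4 comparison of the sorts, where the share was above.

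**Figure D2:**
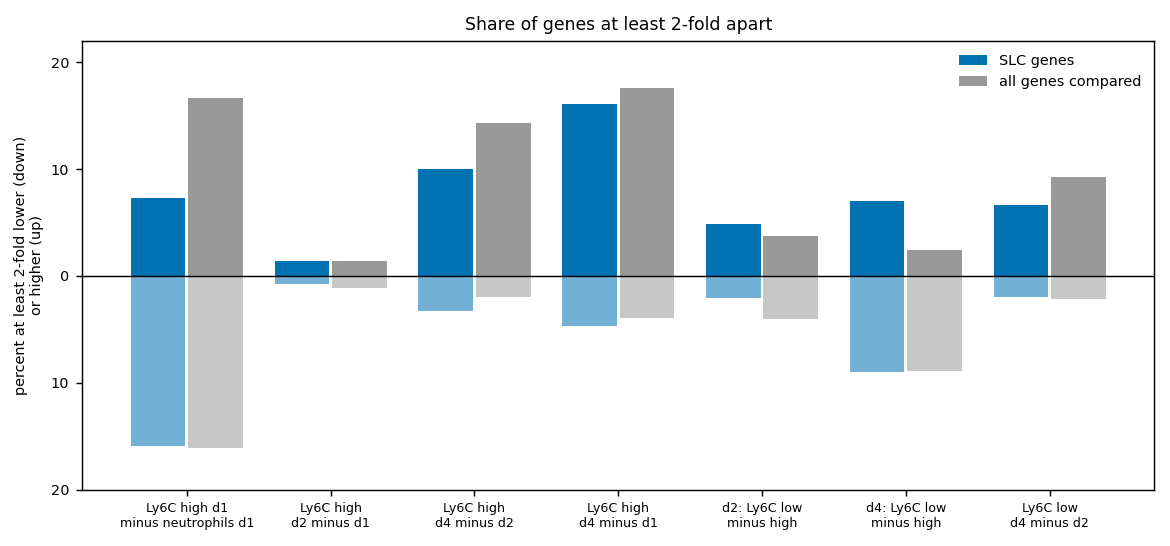
Percent of genes at least 2-fold higher (upward bars) or lower (downward bars) in the first-named group, for the 164 members (blue) and all genes compared (grey), in each of 7 comparisons. In the day 4 comparison of Ly6C low with Ly6C high macrophages, 7.05% of members and 2.44% of all genes were higher.

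In Ly6C high macrophages of day 1 compared with neutrophils, 11 members were at least 2-fold higher (7.28%, beside 16.6% of all genes). Another 24 were lower (15.9%, beside 16.1%). The higher ones were led by Slc4a11, a member of the bicarbonate family that moves protons and ammonia (4.23), the metal importer Slc39a14 (2.37), Slc7a8 (1.98), Slc15a3 (1.66), Slc25a5 (1.58) and Slc7a7, a light chain for cationic amino acids (1.5). The lower ones were led by Slc6a12, the betaine and GABA carrier (-4.43), Slc2a3, a glucose carrier of high affinity (-3.91), Slc18a2, which loads monoamines into vesicles (-2.86), Slc22a15, a carrier of organic zwitterions and cations (-2.78), Slc43a3 (-2.38) and Slc35a5, of the nucleotide sugar family (-2.10). Median differences were -0.02 for the members and 0.08 for all genes. Median-ratio rescaling moved the latter to -0.07, with 8 members higher and 28 lower. Of all genes at least 2-fold apart, 43.4% were higher under it, against 50.8% without it. Neutrophil markers were lower in the macrophage column for 8 of the 9 compared, and the part of each cell type in a member's difference was not tested.

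Against every other group, 12 members were at least 2-fold higher in neutrophils (7.32%, beside 6.71% of all genes). Beside Slc6a12, Slc2a3, Slc18a2, Slc22a15 and Slc35a5 they were Slc20a1 and Slc2a6 and, chosen after their values were seen, Slc6a13, Slc39a4, Slc24a1, Slc25a18 and Slc26a9. Slc6a12 (chr6:121343076-121365775, GRCm38, plus strand) was at 8 in neutrophils, then 3.57, 3.15 and 3.57 in Ly6C high macrophages of days 1, 2 and 4, and 4.04 and 3.64 in Ly6C low macrophages of days 2 and 4. Its relative Slc6a13, a GABA carrier, was at 5.68 in neutrophils and between 0.78 and 1.57 in the other groups. Slc39a4, an importer of zinc, was at 6.98 in neutrophils and between 1.83 and 4.21 elsewhere. In these 3 genes, and in Slc18a2 and Slc25a18, only neutrophils reached 5. Such genes are members through neutrophils alone, where they are high, and 156 of the 164 members reached 5 in a macrophage group. The share of all genes was taken by the same rule. With a filter asking 2 of the 6 groups to reach 5, 11 members were higher in Ly6C high macrophages of day 1 than in neutrophils and 17 lower. Slc2a3 (chr6:122727809-122801640, minus strand) was at 9.85 in neutrophils, then 5.94, 6.17 and 7.06 in Ly6C high macrophages, and at 6.27 and 5.97 in Ly6C low macrophages. Slc22a15 was at 9.58 against 6.13 to 6.80, and Slc25a18, a mitochondrial glutamate carrier, at 6.71 against 3.17 to 3.76. One member, Slc13a3, a sodium-coupled carrier of dicarboxylates, was at least 2-fold lower in neutrophils than in every other group, at 4.82 against 6.22 to 7.83.

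Few members, as few of all genes, were 2-fold apart between days 1 and 2 of Ly6C high macrophages. On day 2, 2 members were at least 2-fold higher (1.43%, beside 1.41% of all genes) and 1 lower (0.714%, beside 1.1%). The lower one was Slc5a3, the sodium-coupled carrier of the osmolyte myo-inositol, at 9.26 on day 1, 7.91 on day 2 and 9 on day 4 (-1.34 from day 1 to day 2). The higher ones were Slc46a3 (1.47) and Slc43a3 (1.00), and both went on to higher values on day 4. Under quantile normalization 1 was higher and 1 lower.

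Between days 2 and 4 of Ly6C high macrophages, 15 members were higher (10%, beside 14.3% of all genes) and 5 lower (3.33%, beside 2%). Leading the higher members were the scaffold Slc9a3r2 (2.57), Slc43a3 (2.50), the zinc exporter Slc30a4 (2.09), the lysosomal carrier Slc46a3 (1.88), the sodium, potassium and chloride cotransporter Slc12a2 (1.78) and the nucleoside carrier Slc29a1 (1.44). The lower ones were Slc4a11 (-1.59), Slc7a8 (-1.24), Slc7a1, which imports arginine and lysine (-1.09), Slc39a14 (-1.07) and the fatty acid transport protein Slc27a4 (-1.03). Against day 1, 24 were higher on day 4 (16.1%, beside 17.6% of all genes) and 7 lower (4.7%, beside 3.97%). Under quantile normalization the split was 13 higher and 8 lower against day 2, and 16 higher and 11 lower against day 1. Of all genes at least 2-fold apart, 63.3% and 59.7% were then higher, against 87.7% and 81.6% without it. That normalization moved the median of all genes from 0.01 to -0.12 in both comparisons.

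Over the 3 days of Ly6C high macrophages, 23 members went up at each step by at least 2-fold in all (14%, beside 14.9% of all genes) and 6 went down (3.66%, beside 3.61%). The 6 were Slc4a11, Slc7a8, Slc39a14, Slc27a4, Slc25a37, which brings iron into mitochondria, and the ascorbate carrier Slc23a2. Slc27a4 was at 10.07, 9.58 and 8.55 on days 1, 2 and 4, Slc25a37 at 10.11, 9.36 and 8.98, and Slc23a2 at 11.01, 10.49 and 9.97.

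A group of 8 members was at least 2-fold higher in Ly6C high macrophages of day 4 than in every other group (4.88%, beside 6.01% of all genes). Among them were Slc12a2, Slc1a3, Slc30a4 and Slc43a3, and Slc10a6, Slc26a10 and Slc27a3, of which the last 3 were chosen after their values were seen. Slc1a3, a glutamate carrier of glia and other cells, was listed at 0 in Ly6C high macrophages of day 1 and Ly6C low macrophages of day 2, and was at 1.31 in neutrophils, 0.26 and 5.15 in Ly6C high macrophages of days 2 and 4, and 2.59 in Ly6C low macrophages of day 4. Slc10a6, a carrier of steroid sulfates, was at 5.71 in Ly6C high macrophages of day 4 and between 0.47 and 3.06 in the other groups. Slc27a3, of the fatty acid transport family, was at 5.61 there and between 2.36 and 3.88 in the others. Only Ly6C high macrophages of day 4 reached 5 in these 3 genes, which are members through that group alone. Slc43a3 (chr2:84936579-84958509, plus strand), which carries purine nucleobases although its family is named for amino acids, was at 7.24 in neutrophils, then 4.86, 5.86 and 8.36 in Ly6C high macrophages and at 6.47 and 7.26 in Ly6C low macrophages. Slc12a2 was at 7.34 against 4.97 to 5.76 in the other groups.

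Markers of other cells moved in the same column. All 9 endothelial markers were at 5 or above in Ly6C high macrophages of day 4, where they summed to 5685 normalised reads, against 348 to 1092 in the other macrophage groups. All 10 fibroblast markers were at 5 or above there too and summed to 59190, against 14924 in Ly6C low macrophages of day 4 and 238 to 1358 in the earlier macrophage groups. Endothelial markers were higher for 9 of 9 from day 2 to day 4 of Ly6C high macrophages (median 2.81) and lower for 9 of 9 in Ly6C low than in Ly6C high macrophages of day 4 (median -4.31). None of either list was at 0 in a macrophage group. Markers of pericytes and smooth muscle summed to 3278 in that column against 412 to 837 in the other macrophage groups. Cspg4 among them was higher in Ly6C low macrophages of days 2 and 4 (8.44 and 8.63) than in that column (7.54). Plasmacytoid dendritic cell markers summed to 4280 there against 1438 to 1971 in the other macrophage groups, with Siglech at 9.51 and Ccr9 at 8.51, and conventional dendritic cell markers to 692 against 162 to 400. Whether the 8 members came from these cells or from macrophages was not tested.

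**Figure D3:**
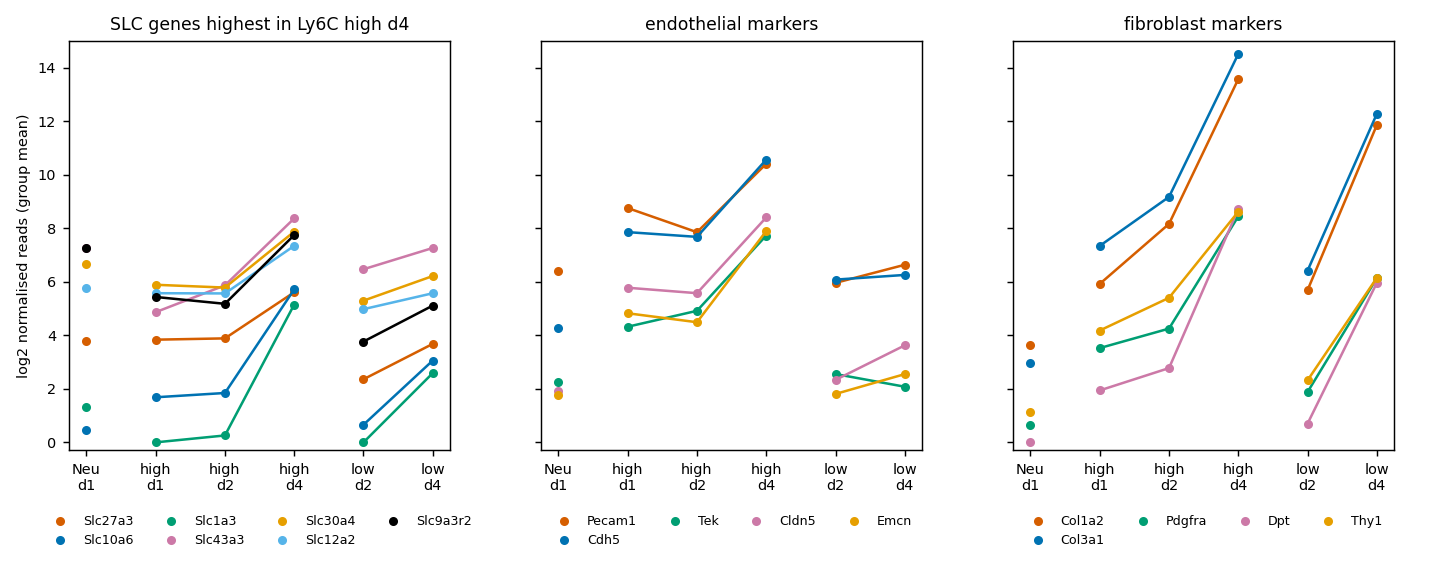
Log2 normalised reads (vertical axis, group means without error) by group (horizontal axis) of 7 members that were highest in Ly6C high macrophages of day 4, of 5 endothelial markers and of 5 fibroblast markers. All 3 sets have their highest value in Ly6C high macrophages of day 4, and the fibroblast markers are also high in Ly6C low macrophages of day 4.

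On day 2, 7 members were at least 2-fold higher in Ly6C low macrophages (4.86%, beside 3.71% of all genes) and 3 lower (2.08%, beside 4.03%). The higher ones included the zinc and manganese importer Slc39a8 (1.38), Slc46a3 (1.16), the mitochondrial dicarboxylate carrier Slc25a10 (1.11) and Slc13a3 (1.04). The lower ones included Slc4a11 (-2.48) and Slc38a1, which imports glutamine (-1.07). The other 4 of these 10, chosen after their values were seen, were Slc39a2 (1.77), the calcium exchanger Slc24a3 (1.74), the proton-coupled folate carrier Slc46a1 (1.32) and Slc9a3r2 (-1.41).

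On day 4, 11 members were higher in Ly6C low than in Ly6C high macrophages (7.05%, beside 2.44% of all genes) and 14 lower (8.97%, beside 8.93%). The median difference was 0.16 for the members and -0.03 for all genes. Higher members were led by Slc39a8 (1.55), the creatine carrier Slc6a8 (1.14), Slc26a11, a chloride and sulfate transporter of lysosomes (1.14), the fatty acid transport protein Slc27a1 (1.14), Slc46a3 (1.02) and Slc25a13, the mitochondrial aspartate and glutamate exchanger (1.00). Lower members were led by Slc9a3r2 (-2.64), Slc4a11 (-2.20), Slc12a2 (-1.77), Slc30a4 (-1.66), the light chain Slc7a6 (-1.20) and Slc39a14 (-1.14). The 8 genes that stood 2-fold above every other group in Ly6C high macrophages of day 4 are among these 14 by definition, so the overlap is no separate result. The endothelial and fibroblast markers were high in that column as well. Other markers were higher in Ly6C low macrophages of day 4, namely 4 of 4 myogenic markers compared (median 2.12), 3 of 3 of mature muscle fibre (median 1.29) and 3 of 4 of mast cells (median 2.49, with Kit lower). Their summed normalised reads were 268, 234 and 219 there, against 65.0, 93.2 and 102 in Ly6C high macrophages of day 4, and their part in the members' differences was not tested. Under quantile normalization the split was 18 higher and 13 lower. Of all genes at least 2-fold apart, 41.7% were higher under that scaling, against 21.4% without it.

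The comparisons of the sorts on days 2 and 4 share no column. Among the 144 members compared on day 2 and on day 4, 113 had differences of the same sign. The share of all genes was not computed for this count, so it is not read as a trait of the members. Over all 164 members, 74 were higher in Ly6C low macrophages on both days, by any size (45.1%, beside 33.5% of all genes), and 53 lower (32.3%, beside 41.1%). Under quantile normalization these were 86 and 47 (52.4% and 28.7%, beside 39.5% and 32.6% of all genes). At least 2-fold on both days, 5 were higher (3.05%, beside 1.6%), namely Slc39a8, Slc46a3, Slc39a2, Slc36a2 and Slc45a3. Another 5 were lower (3.05%, beside 5.46%), among them Slc4a11, Slc9a3r2, Slc10a6 and Slc27a3. These counts over 164 members, and the shares beside them, asked only for a value of 5 in any of the 6 groups. With 5 asked of a group on each day, only Slc39a8, Slc46a3, Slc39a2, Slc4a11 and Slc9a3r2 remained. No member was 2-fold higher on 1 day and 2-fold lower on the other.

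**Figure D4:**
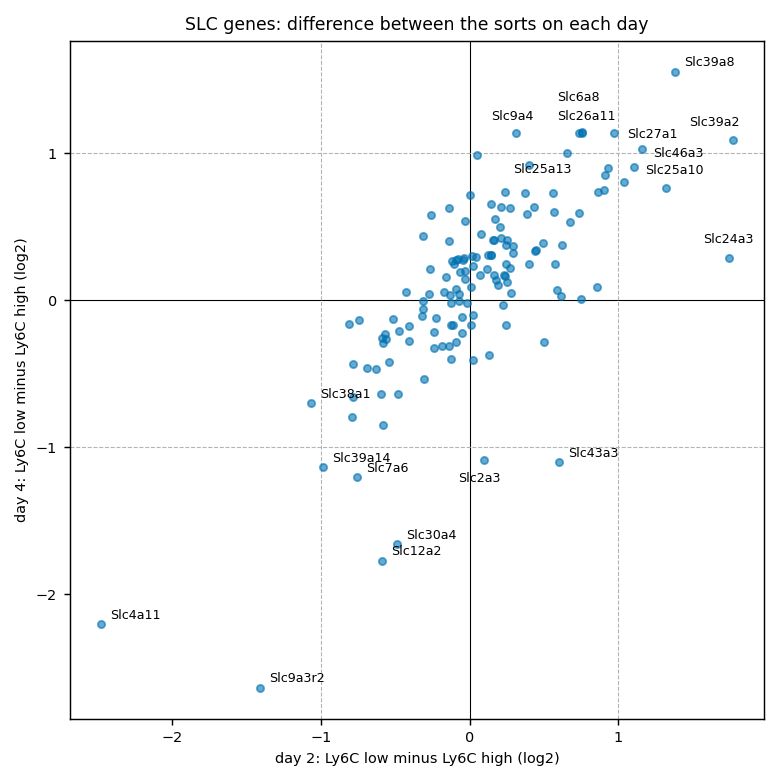
Difference of Ly6C low minus Ly6C high macrophages in log2 normalised reads on day 2 (horizontal axis) and day 4 (vertical axis), 1 point for each of the 144 members compared on both days, with dashed lines at 2-fold. Slc39a8, Slc46a3 and Slc39a2 lie above 1 on both axes, and Slc4a11 and Slc9a3r2 below -1 on both.

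From day 2 to day 4 of Ly6C low macrophages, 10 members were higher (6.67%, beside 9.23% of all genes) and 3 lower (2%, beside 2.16%). Under quantile normalization these were 8 and 4. Of all genes at least 2-fold apart, 66.7% were higher under that scaling, against 81.1% without it. Leading the 10 higher members were Slc46a3 (1.74), Slc9a7, a sodium and proton exchanger of the Golgi (1.49), the choline carrier Slc44a1 (1.28), Slc12a9, of the cation and chloride cotransporter family (1.12), Slc29a1 (1.11) and the zinc exporter Slc30a1 (1.05). The lower ones were Slc39a14 (-1.23), Slc7a1 (-1.10) and Slc4a11 (-1.32), the last of which is named here for completeness. All 10 fibroblast markers were higher as well (median 5.28), and myogenic markers summed to 268 normalised reads on day 4 against 8 on day 2. Their part in the members' differences was not tested.

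Among amino acid carriers the heavy chain varied less over the macrophage groups than its light chains. Slc3a2 (chr19:8706882-8723369, minus strand) was at 11.97 in neutrophils, then 12.72, 12.78 and 12.85 in Ly6C high macrophages of days 1, 2 and 4, and 12.75 and 12.99 in Ly6C low macrophages of days 2 and 4, so that its macrophage values spanned 0.27. Slc7a8 (chr14:54722209-54781946, minus strand), which exchanges neutral amino acids, was at 11.19 in neutrophils, 13.17, 12.57 and 11.33 in Ly6C high and 12.50 and 11.61 in Ly6C low macrophages. It was highest in Ly6C high macrophages of day 1 and lower on day 4 than on day 2 in Ly6C high macrophages, with the same order in Ly6C low macrophages. Slc7a5, the light chain that imports leucine and other large amino acids, was at 7.88, then 8.89, 8.98 and 8.72, then 8.40 and 7.87 in the same order of groups. Slc7a6 was at 8.07, then 8.69, 8.71 and 8.42, then 7.95 and 7.22, and Slc7a1, which needs no heavy chain, at 8.98, then 9.88, 9.92 and 8.83, then 9.13 and 8.03. These 3 genes had their lowest macrophage value in Ly6C low macrophages of day 4. Slc7a7 differed from them, at 8.93, then 10.43, 10.48 and 9.75, then 10.34 and 10.37.

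All 6 members of family 7, Slc7a6os included, were lower on day 4 than on day 2 of Ly6C high macrophages (2 of them at least 2-fold, beside 2% of all genes), also under both other scalings. Over all solute carrier members, 84 of 150 were lower there. All 6 of the family were lower in Ly6C low than in Ly6C high macrophages of day 2, none by 2-fold, and 4 of 6 under quantile normalization. There, 66 of all 144 members compared were lower. The shares of all genes below 0 were not computed. Slc7a2 and Slc7a11, which were left out by name, also belong to this family. In these 2 comparisons Slc7a2 was higher (0.71 and 0.32) and Slc7a11 lower (-0.71 and -1.06). Some carriers of glutamine outside the family were lower in Ly6C low macrophages as well. Slc1a5, which exchanges glutamine and other neutral amino acids, was at 9.46 in neutrophils, 10.35, 10.48 and 10.36 in Ly6C high and 9.88 and 9.72 in Ly6C low macrophages. Slc38a1 was at 11.79, then 11.87, 11.92 and 11.45, then 10.85 and 10.75, and Slc38a2, which is known to be induced by amino acid shortage, at 12.88, then 12.24, 11.87 and 11.97, then 11.36 and 11.84. In each of the 3 genes both Ly6C low values lay below all 3 Ly6C high values, for Slc38a2 only just (11.84 against 11.87). The other 4 members of family 38 (Slc38a6, Slc38a7, Slc38a9 and Slc38a10) were higher in Ly6C low macrophages on both days, and the median over the 6 members was 0.24 on each day.

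Other amino acid carriers had their own patterns. Slc6a8 was at 10.26 in neutrophils, 10.43, 10.52 and 10.25 in Ly6C high and 11.27 and 11.39 in Ly6C low macrophages. Both Ly6C low means thus lay above all Ly6C high means. Slc6a6, the taurine carrier, was at 13.22, then 12.40, 12.63 and 12.33, then 12.63 and 13.04. Among lysosomal carriers, Slc15a3 (chr19:10839727-10859362, plus strand) was at 12.15, then 13.81, 13.54 and 12.89, then 12.73 and 12.73, highest on day 1 in Ly6C high macrophages. Its relative Slc15a4 was at 9.65, then 10.11, 10.08 and 10.49, then 10.10 and 10.73, and Slc38a9, which signals lysosomal arginine to the kinase mTORC1, at 7.51, then 7.34, 7.42 and 8.10, then 7.66 and 8.47. The last pair, chosen after their values were seen, were higher on day 4 than on day 2 in both sorts. Slc36a4, the most abundant member of its family, was at 9.2, then 9.49, 9.82 and 9.48, then 9.79 and 10.01. Slc36a1, which exports small amino acids from lysosomes, stayed between 8.51 and 9.24 in all 6 groups, and Slc43a2, a carrier of large neutral amino acids, between 11.47 and 12.05. Over the class, 6 of 25 members were at least 2-fold apart between the sorts on day 4 (24%, beside 11.4% of all genes). Of these, 2 were higher and 4 lower in Ly6C low macrophages. Among the 6, Slc1a3 reached 5 only in Ly6C high macrophages of day 4, and Slc36a2 only in Ly6C low macrophages of day 4. Slc43a3, which carries purine nucleobases, was counted here by its family.

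Genes of the response to amino acid shortage, a separate list, gave no member 2-fold apart in any comparison among macrophages, with 6 compared each time, beside 2.51 to 21.6% of all genes. Atf4, the transcription factor of that response, was at 11.72 in neutrophils and between 11.71 and 12.29 in macrophages. Asns, asparagine synthetase, was at 8.25 in neutrophils and 6.63 in Ly6C high macrophages of day 1, and Chac1, which breaks down glutathione, at 7.13 and 3.11. These were the 2 lower genes of 7 in that comparison, and none was higher.

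Of the sugar carriers, Slc2a3 and Slc2a6 were higher in neutrophils than in every macrophage group, and others were not. Beside Slc2a3, Slc2a6, a hexose carrier of the lysosome, was at 11.54 in neutrophils, then 10.36, 10.06 and 9.56 in Ly6C high macrophages and at 9.27 and 8.90 in Ly6C low macrophages, and both Ly6C low values were below all Ly6C high values. Slc2a8, an intracellular hexose carrier, was at 6.66, then 6.25, 7.04 and 7.64, then 7.94 and 8.39, with the opposite order of the sorts. Slc45a4, of the family of sucrose carriers, was at 9.01, then 8.59, 9.2 and 8.82, then 9.6 and 9.74, and Slc50a1, an exporter of glucose, at 7.14, then 7.33, 7.6 and 8.33, then 7.62 and 7.92. Slc37a2 was at 11.10, then 11.99, 12.45 and 11.88, then 12.73 and 12.50, highest in both Ly6C low groups. In the class, 3 of 12 members were at least 2-fold lower in Ly6C high macrophages of day 1 than in neutrophils and none was higher (25% apart, beside 32.7% of all genes). Between the sorts, none of 12 was 2-fold apart on day 2 (7.74% of all genes) and 2 of 14 on day 4, 1 in each direction (14.3%, beside 11.4%).

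Among ion and pH transporters, Slc4a11 (chr2:130684113-130697519, minus strand) had the widest range. It was at 5.19 in neutrophils, 9.42, 8.75 and 7.16 in Ly6C high macrophages of days 1, 2 and 4, and 6.27 and 4.96 in Ly6C low macrophages of days 2 and 4. Its macrophage values spanned 4.46, with every Ly6C high value above both Ly6C low values. The endosomal sodium and proton exchanger Slc9a9 was at 8.45, then 9.10, 9.29 and 9.2, then 10.15 and 9.94, the Golgi exchanger Slc9a7 at 5.32, then 5.34, 6.28 and 6.84, then 6.34 and 7.82, and Slc12a9 at 7.59, then 7.14, 7.63 and 8.24, then 7.77 and 8.89. Slc9a7 and Slc12a9 were higher on day 4 than on day 2 in both sorts. Slc26a11 was at 8.82, then 6.86, 7.57 and 8.18, then 8.33 and 9.32, and Slc13a3 at 4.82, then 6.22, 6.54 and 7.03, then 7.58 and 7.83. The phosphate importer Slc20a1 was at 12.68 in neutrophils and between 10.45 and 11.29 in macrophages. The chloride and bicarbonate exchanger Slc4a2 stayed between 9.61 and 10.07 in all 6 groups and Slc24a6, the sodium and calcium exchanger of mitochondria, between 10.41 and 11.07. The sulfate carrier Slc26a2 was at 9.95, then 10.15, 9.84 and 9.32, then 9.1 and 9.19, and Slc8a1, the sodium and calcium exchanger of the cell surface, at 7.95, then 7.82, 7.81 and 8.25, then 8.05 and 8.98. Slc12a4, a potassium and chloride cotransporter, was lowest in neutrophils, at 9.08 against 9.56 to 10.38. The scaffold Slc9a3r2 was at 7.26, then 5.43, 5.17 and 7.74, then 3.76 and 5.11. It was high in neutrophils and in Ly6C high macrophages of day 4, where markers of several other cell types were high too.

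Mitochondrial carriers, taken here as all members of family 25, varied little among the macrophage groups. None of 30 was at least 2-fold apart from day 1 to day 2 of Ly6C high macrophages (2.51% of all genes), none of 30 from day 2 to day 4 (16.3% of all genes), and none of 31 from day 2 to day 4 of Ly6C low macrophages (11.4% of all genes). From day 1 to day 4 of Ly6C high macrophages 3 of 30 were (10%, beside 21.6%), and 6 of 33 between neutrophils and Ly6C high macrophages of day 1 (18.2%, beside 32.7%). Between the sorts 1 of 31 was higher on each day and none lower (3.23% apart, beside 7.74% and 11.4% of all genes), and on day 4 the number was 0 under median-ratio rescaling and 3 under quantile normalization. Their median span over the macrophage groups was 0.69, and 7 of the 33 spanned 2-fold there, beside 36.3% of all genes. Over all 6 groups the median span was 0.97. Slc25a3 stayed between 11.78 and 12.59 in all 6 groups. Slc25a5 was at 10.41 in neutrophils and between 11.37 and 11.99 in macrophages, while Slc25a4, the ADP/ATP carrier of heart and muscle, was at 9.19 in neutrophils, 9.29, 9.60 and 10.27 in Ly6C high and 10.22 and 10.31 in Ly6C low macrophages. Slc25a10 was at 7.38, then 6.57, 7.27 and 7.96, then 8.38 and 8.87. Slc25a13 was at 7.05, then 6.83, 7.20 and 6.81, then 7.86 and 7.81. In both genes the Ly6C low values lay above all other groups. Citrate leaves mitochondria through Slc25a1, which stayed between 8.05 and 8.82, and malate and oxoglutarate are exchanged by Slc25a11, between 9.49 and 9.91. Mitochondrial iron importers differed, since Slc25a37 was at 10.89 in neutrophils and between 8.98 and 10.11 in macrophages, while its relative Slc25a28 was lowest in neutrophils, at 7.84 against 8.24 to 9.17. Slc25a33, a pyrimidine nucleotide carrier, was at 6.92 in neutrophils, 8.36, 8.16 and 7.76 in Ly6C high and 7.59 and 7.52 in Ly6C low macrophages. Slc25a20, which brings acylcarnitines to fatty acid oxidation, was at 9.47 in neutrophils and between 8.11 and 8.87 in macrophages.

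Carriers of fatty acids and monocarboxylates were few and mixed. Slc27a1 was at 10.51 in neutrophils, then 9.94, 10.06 and 9.95 in Ly6C high and at 11.03 and 11.08 in Ly6C low macrophages. Both Ly6C low means thus lay above all Ly6C high means. Slc27a4 was at 10.57, then 10.07, 9.58 and 8.55, then 9.26 and 8.45, lower on day 4 in both sorts. Slc16a7, a carrier of pyruvate and lactate, was at 6.9, then 6.66, 6.91 and 7.23, then 7.47 and 7.96, again with both Ly6C low values above all Ly6C high values. Slc16a10, a carrier of aromatic amino acids, was at 10.45, then 11.06, 10.72 and 10.44, then 10.74 and 10.34.

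Equilibrative nucleoside carriers, the 2 members of family 29, were higher on day 4 than on day 2 in both sorts under all 3 scalings. Slc29a1 (chr17:45585200-45599606, minus strand), the equilibrative nucleoside carrier of the cell surface, was at 8.3 in neutrophils, 8, 8.48 and 9.92 in Ly6C high macrophages and 9.05 and 10.17 in Ly6C low macrophages. Slc29a3, its lysosomal relative, was at 9.64, then 10.12, 10.34 and 10.53, then 10.51 and 11.08. Both genes had their highest value in Ly6C low macrophages of day 4, and for Slc29a3 no difference reached 2-fold in the 7 comparisons. The concentrative carrier Slc28a2 was at 9.72 in neutrophils and between 8.28 and 8.92 in macrophages. Slc35a5 was at 10.03 in neutrophils and between 7.64 and 8.26 in macrophages, whereas the other 4 members of family 35 gave no difference of 2-fold in any comparison.

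Zinc carriers held the largest contrasts among the metal families. Zinc exporters of family 30 lower cytosolic zinc, and importers of family 39 raise it. Slc39a14 (chr14:70303469-70351425, minus strand), which imports zinc, manganese and iron, was at 9.76 in neutrophils, then 12.13, 11.55 and 10.47 in Ly6C high macrophages of days 1, 2 and 4, and 10.56 and 9.34 in Ly6C low macrophages of days 2 and 4. Slc39a8 (chr3:135825279-135888572, plus strand), its closest relative in substrate, was at 6.87, then 6.25, 6.32 and 5.62, then 7.69 and 7.18. Slc39a14 was thus lower, and Slc39a8 higher, in Ly6C low than in Ly6C high macrophages on both days (-0.98 and -1.14 for the former, 1.38 and 1.55 for the latter). Slc39a2 (chr14:51892889-51896745, plus strand), chosen after its values were seen, was at 1.75, then 0.75, 4.55 and 4.77, then 6.32 and 5.86, and only the Ly6C low groups reached 5. Slc39a11 was at 8.14, then 7.84, 8.49 and 8.77, then 9.16 and 9.30. Slc39a1, the most abundant importer per kilobase, stayed between 10.48 and 11.01.

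Among the exporters, Slc30a1 (chr1:191906767-191913247, plus strand), the exporter of the cell surface, was at 8.78 in neutrophils, 9.25, 9.34 and 10.11 in Ly6C high and 9.36 and 10.41 in Ly6C low macrophages, higher on day 4 in both sorts. Slc30a4 (chr2:122681233-122702663, minus strand), an exporter of vesicles, was at 6.67, then 5.89, 5.78 and 7.87, then 5.29 and 6.21. It peaked in Ly6C high macrophages of day 4, where endothelial, fibroblast, pericyte and dendritic cell markers had their highest sums, and its source was not tested. The other 4 exporters (Slc30a5, Slc30a6, Slc30a7 and Slc30a9) gave no difference of 2-fold in any comparison. Of metallothioneins, which bind zinc and are induced by it, Mt1 stayed between 10.16 and 10.55, and Mt2 was at 7.82 in neutrophils, 7.73, 7.25 and 8.97 in Ly6C high and 8.15 and 8.28 in Ly6C low macrophages. Mtf1, the factor that senses zinc and binds metal response elements, stayed between 8.22 and 8.63. Of these 3 genes only Mt2 was 2-fold apart in a macrophage comparison, on day 4 against days 1 and 2 of Ly6C high macrophages.

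**Figure D5:**
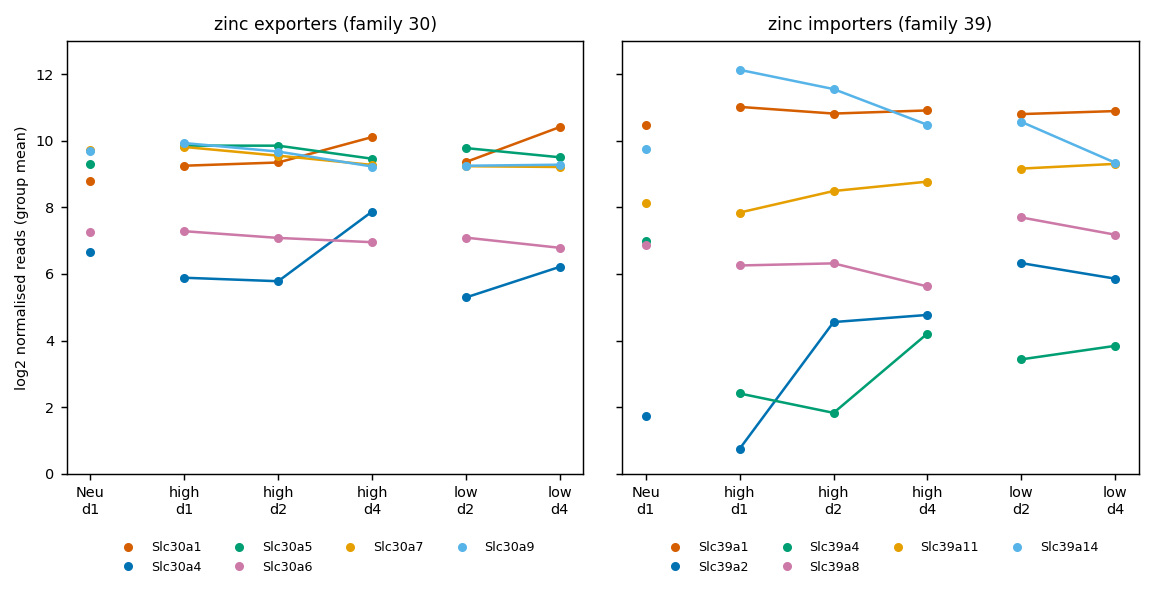
Log2 normalised reads (vertical axis, group means without error) by group (horizontal axis) of the 6 exporters of family 30 and of 6 of the 12 importers of family 39. Slc39a14 runs from 12.13 in Ly6C high macrophages of day 1 to 9.34 in Ly6C low macrophages of day 4, while Slc39a8 and Slc39a2 lie higher in Ly6C low than in Ly6C high macrophages of the same day.

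Slc30a1 is a known target of Mtf1, so the starts of 3 zinc carriers are shown, from 250 bases before to 50 after the RefSeq start (GRCm38.p6), 5′ to 3′ on the gene's own strand. Capitals mark the core of the metal response element, written TGCGCNC or TGCACNC and searched on both strands, and a match on the opposite strand shows as its reverse complement. The windows are chr1:191906531-191906830 (plus strand) for Slc30a1, chr2:122702614-122702913 (minus strand) for Slc30a4 and chr14:51893360-51893659 (plus strand) for Slc39a2, whose RefSeq start lies 721 bases from the start of the GENCODE gene. Matches numbered 2 in Slc30a1, 3 in Slc30a4 and 0 in Slc39a2.
Slc30a1: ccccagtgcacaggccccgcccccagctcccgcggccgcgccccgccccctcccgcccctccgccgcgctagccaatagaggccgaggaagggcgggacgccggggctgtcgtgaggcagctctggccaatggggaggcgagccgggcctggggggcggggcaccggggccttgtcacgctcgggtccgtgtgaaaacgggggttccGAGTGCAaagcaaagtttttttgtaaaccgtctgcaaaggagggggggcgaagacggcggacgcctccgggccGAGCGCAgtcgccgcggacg
Slc30a4: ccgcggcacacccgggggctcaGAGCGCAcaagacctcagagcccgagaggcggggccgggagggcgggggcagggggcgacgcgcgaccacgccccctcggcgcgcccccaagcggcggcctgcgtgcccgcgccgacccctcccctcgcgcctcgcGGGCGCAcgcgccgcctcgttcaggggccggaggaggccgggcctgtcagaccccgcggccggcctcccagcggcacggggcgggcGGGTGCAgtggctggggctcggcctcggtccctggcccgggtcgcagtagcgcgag
Slc39a2: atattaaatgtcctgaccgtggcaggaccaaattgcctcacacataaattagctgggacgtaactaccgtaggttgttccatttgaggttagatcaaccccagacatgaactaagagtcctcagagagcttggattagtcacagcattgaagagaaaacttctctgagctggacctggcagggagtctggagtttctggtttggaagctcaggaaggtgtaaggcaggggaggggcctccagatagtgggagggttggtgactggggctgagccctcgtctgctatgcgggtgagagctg

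At least 1 match was found in 25.7% of the 32851 RefSeq windows of this length, in 32.4% of the 170 windows of members (123 genes had an entry) and in 8 of the 18 windows of zinc carriers (44.4%). At least 2 were found in 7.11% of all windows and at least 3 in 1.97%. A match describes letters and not a bound site, and no binding data are among the files. Slc39a14 had no entry.

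Slc31a1, the copper importer, stayed between 10.15 and 10.98 in all groups, and Slc31a2, of the same family, between 9.76 and 11. Magnesium carriers of family 41 had different orders, with Slc41a2 at 9.1 in neutrophils, 9.19, 8.84 and 8.4 in Ly6C high and 8.91 and 8.57 in Ly6C low macrophages, and Slc41a3 at 7.05, then 6.4, 6.67 and 7.5, then 7.26 and 7.57. Over all 23 metal carriers, 2 of 22 members compared were at least 2-fold higher and 2 lower in Ly6C low than in Ly6C high macrophages of day 4 (2.44% and 8.93% of all genes).

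Carriers of vitamins and heme included the member that was highest by 2-fold in Ly6C low macrophages of day 4. Slc46a3 (chr5:147878437-147894815, minus strand), a lysosomal carrier of the folate transporter family, was at 6.14 in neutrophils, then 4.4, 5.87 and 7.75 in Ly6C high macrophages of days 1, 2 and 4, and 7.03 and 8.77 in Ly6C low macrophages of days 2 and 4. It went up with time in both sorts and was higher in Ly6C low macrophages on each shared day, and its macrophage values spanned 4.37. The genes most like it over the 6 groups by Pearson correlation were Ccdc61 (0.999), Hacl1 (0.999) and Mcpt2 (0.998), and 72 of 13065 genes reached 0.98. Mcpt2 is a mast cell protease, and the 4 mast cell markers summed to 219 normalised reads in Ly6C low macrophages of day 4 against 33.1 to 102 in the other macrophage groups, with Cpa3 at 6.23 and Mcpt4 at 6.26. Their part in the values of Slc46a3 was not tested. Its relative Slc46a1 was at 4.76, then 3.72, 4.17 and 5.32, then 5.49 and 6.08. Slc48a1, which exports heme from lysosomes that digest red cells, was at 10.63, then 10.01, 9.74 and 10.05, then 10.65 and 10.90, with both Ly6C low values above all Ly6C high values. Slc23a2, which imports ascorbate, was at 11.6, then 11.01, 10.49 and 9.97, then 10.45 and 10.26. The thiamine carrier Slc19a2 stayed between 7.01 and 7.84 in all groups, and the riboflavin carrier Slc52a2 between 6.81 and 7.41. In Ly6C low against Ly6C high macrophages of day 4, 7 of 7 members of the class were above 0 (6 of 7 under median-ratio rescaling), beside 95 of all 156 members compared. The share of all genes above 0 was not computed. The lowest of the 7 was at 0.005 and their median at 0.28, beside a median of -0.03 for all genes. Past 2-fold was 1 of them (14.3%, beside 2.44% of all genes).

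Outside these classes, the choline carrier Slc44a1 was at 10.24 in neutrophils, 9.03, 9.16 and 10.12 in Ly6C high and 9.12 and 10.39 in Ly6C low macrophages, so that in both sorts day 4 was higher than day 2. Its relative Slc44a2 was at 10.26, then 9.42, 9.85 and 10.38, then 9.44 and 10.11, in the same order. The urea carrier Slc14a1 was at 2.64, then 0.87, 2.78 and 4.88, then 3.06 and 5.35, and only Ly6C low macrophages of day 4 reached 5. Slc33a1, which carries acetyl-CoA into the endoplasmic reticulum, stayed between 7.44 and 8.02. Carnitine is imported by Slc22a5, which stayed between 6.53 and 7.16. Slc22a4, a carrier of ergothioneine, was at 8.68, then 9.04, 9.03 and 9.07, then 9.41 and 9.66. Slc17a5, which exports sialic acid from lysosomes, stayed between 9.05 and 9.70.

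Transport genes with other symbols were taken from a separate list, of which 15 of 18 are in the table. Between the sorts on day 4, 1 of 11 compared was at least 2-fold higher and 3 lower (2.44% and 8.93% of all genes), and from day 1 to day 4 of Ly6C high macrophages 3 were higher and 1 lower (17.6% and 3.97%). Slco2b1, a carrier of organic anions, was at 6.66 in neutrophils, 7.70, 8.36 and 9.12 in Ly6C high and 9.55 and 10.41 in Ly6C low macrophages. Slco4a1, of the same family, was at 10.48, then 9.32, 8.61 and 7.31, then 8.35 and 6.05. These relatives thus had opposite orders over time and sort. Bsg, the partner that brings monocarboxylate carriers to the membrane, stayed between 10.96 and 11.36.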

How the data were processed

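RNA was measured in 17 samples of sorted muscle cells. Per the labels' protocols, RNA was selected by its poly-A tail and TruSeq libraries were sequenced. Tools listed by the submitters' processing notes are TopHat2 2.0.7 and Cufflinks 2.0.2 with the build mm10, and their roles are not stated. For the strand setting of the counting, no source used here gives a value. Log2 normalised reads were deposited by the authors with 1 column for each of the 6 groups, used here as the authors' means. That they are log2 values was read from the lowest values, which fall on ladders of whole reads.

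Differences of these means were computed in Python 3.11.15 with pandas 2.3.3 and numpy 2.4.6, and figures were drawn with matplotlib 3.10.9. Because there is 1 value per group, the planned limma test on single samples could not be run. A gene was compared if either group reached a log2 value of 5, and counted if the difference was 1 or more. The counting script was tested on simulated data. GENCODE M21 (GRCm38, the assembly of mm10) gave positions and exon lengths, matching 36308 table genes (95.3%), and RefSeq GRCm38.p6 gave the promoter windows.

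In each comparison, genes were named by size: up to 6 higher and 6 lower members past 2-fold whose higher group reached a log2 value of 7. The most abundant member of each family and 22 set genes were added. Some members that the rules take are left out by name. Any other gene was chosen after its values were seen. The members, lists and rules were chosen with earlier results of these data known. Alternatives were pseudocounts of 0.1 and 5, 3 filters and 2 scalings.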

Additional observations from a re-analysis of the deposited data

How the results depend on the processing

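No paired analysis was possible because each group has 1 value, and leaving out single samples could not be run for the same reason. The numbers of members at least 2-fold apart stayed within 1.5 times the reported ones under both pseudocounts, both scalings and a filter that asks 2 of the 6 groups to reach a log2 value of 5. When either group had to reach a log2 value of 7, they were 23 for Ly6C high macrophages against neutrophils, 1, 12 and 20 for days 2 against 1, 4 against 2 and 4 against 1 of Ly6C high macrophages, 6 and 14 for Ly6C low against Ly6C high macrophages of days 2 and 4, and 8 for day 4 against day 2 of Ly6C low macrophages. Fewer genes are compared there. With no filter, the numbers were 5 for day 2 against day 1 of Ly6C high macrophages and 17 for the sorts on day 2, and the other 5 comparisons stayed within 1.5 times. All 7 median differences moved by less than 1.5-fold under the 7 alternatives. The reported medians lay between -0.09 and 0.16 on the log2 scale, so this bound was wide and let signs change. Against neutrophils, the median of -0.02 became 0.08 with the filter at 7 and -0.16 under median-ratio rescaling. The 62 named differences kept their direction under both pseudocounts and both scalings. Of these, 4 were below 2-fold under median-ratio rescaling, 3 under quantile normalization and 2 with a pseudocount of 5, the lowest at 0.93 on the log2 scale.

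Depth limits the members near a log2 value of 5. In the first neutrophil library found from the low values, 1375 genes stood at 2 reads, 243 at 1 and 91 at 3, then 528 at 4, 36 at 5 and 199 at 6. Whether reads were counted in pairs there was not tested. If they were, a log2 value of 5 would rest on fewer separate counts than given, with a larger counting error.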
